A study of Homo sapiens with 4 samples.

Results

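The miR-103, miR-107 and miR-33 groups are small regulatory RNAs cut from introns of genes of central metabolism, and 8 of their mature forms were looked up by name among the 2656 mature miRNAs counted in human cortical interneurons. hsa-miR-103a-3p, hsa-miR-103a-2-5p, hsa-miR-103b and hsa-miR-107 come from the PANK genes, and hsa-miR-33a-5p, hsa-miR-33a-3p, hsa-miR-33b-5p and hsa-miR-33b-3p, the arms of 2 precursors, from the SREBF genes. The species prefix is left out from here on. The cultures, described by the study as mainly these inhibitory neurons with a few glial cells, were differentiated from H1, 1 established human embryonic stem cell line. Small RNA libraries came from 2 cultures kept for 7 days with around 50 to 100 mM ethanol and from 2 cultures kept for 7 days without it, all in neuronal maturation medium, and the methods describe a further day without ethanol before collection. The comparison asked whether exposure changed miRNA levels in these cultures. With 1 cell line and 2 cultures per group, the p values set a difference only against the spread between these cultures.

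PANK1, PANK2 and PANK3 encode pantothenate kinases, which carry out the first step of coenzyme A synthesis. SREBF2 and SREBF1 encode the transcription factors that switch on genes of cholesterol and fatty acid synthesis, and miR-33a and miR-33b, made from the same transcripts, are known for repressing the cholesterol exporter ABCA1. miR-103 and miR-107 are known for effects on insulin sensitivity and for repressing Dicer, the enzyme that makes most mature miRNAs. A miRNA pairs with its targets mainly through its seed, bases 2 to 8 from its 5′ end.

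The mature sequences below (RefSeq, GRCh38.p14) are shown because they decide which members can be told apart and which share targets, with the seed in capitals. All 8 members were found there, and miR-103a-1-5p, which is not a member, is added as the opposite arm of the remaining MIR103A precursor.
miR-103a-3p: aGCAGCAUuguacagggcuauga
miR-107: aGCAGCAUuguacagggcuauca
miR-103a-2-5p: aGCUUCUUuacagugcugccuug
miR-103a-1-5p: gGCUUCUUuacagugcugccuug
miR-103b: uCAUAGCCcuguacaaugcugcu
miR-33a-5p: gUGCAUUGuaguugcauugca
miR-33b-5p: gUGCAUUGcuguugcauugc
miR-33a-3p: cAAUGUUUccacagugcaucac
miR-33b-3p: cAGUGCCUcggcagugcagccc

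miR-103a-3p and miR-107 share the seed GCAGCAU and all of their 23 bases except 1, G22C, counted from 1 at the 5′ end with the miR-103a-3p base first. A read of either that ends before base 22 therefore matches both. miR-33a-5p and miR-33b-5p share the seed UGCAUUG and differ inside it at no base. They differ by U9C and A10U, and miR-33a-5p has 1 more base at its 3′ end. The 5p arms of the MIR103A precursors differ by A1G alone. miR-103b is the exact reverse complement of miR-103a-3p, since its precursors lie on the opposite strand of the same loci. No other miRNA of the RefSeq table that was also counted here carried the seed GCAGCAU or UGCAUUG, and miR-515-3p and miR-519e-3p, which share the miR-33b-3p seed AGUGCCU, had 0 counts in each library.

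Each precursor lay within an intron in every GENCODE 29 transcript of its host gene that spans it (GRCh38; the counts carry no coordinates). MIR103A1 is on chromosome 5 (168560896 to 168560973, minus strand) in a 2235-base intron of PANK3. MIR103A2 is on chromosome 20 (3917494 to 3917571, plus strand) in a 1620-base intron of PANK2. Both give the same miR-103a-3p, so its counts cannot be divided between PANK3 and PANK2. MIR107 is on chromosome 10 (89592747 to 89592827, minus strand) in a 4419-base intron of PANK1. MIR33A is on chromosome 22 (41900944 to 41901012, plus strand) in a 2471-base intron of SREBF2, and MIR33B on chromosome 17 (17813836 to 17813931, minus strand) in a 475-base intron of SREBF1. These 5 precursors have the strand of their host. The mRNA of the host genes was not analysed here.

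The counts summed to between 12100425 and 24858230 per library, and each exposed library was deeper than each unexposed one, so depth and exposure cannot be told apart. Levels are in CPM, a library's counts scaled to the same fixed total in each, 1 read standing for 1 miRNA whatever its length, and the detection floor of 3 counts was 0.121 to 0.248 CPM. Without further scaling, the 7 neuronal marker miRNAs summed to 345312 to 382423 CPM in exposed and 388595 to 409192 CPM in unexposed libraries. The 8 markers of pluripotent cells summed to 2.74 to 2.86 CPM in exposed and 2.94 to 4.13 CPM in unexposed libraries, with 3 of them at 0 throughout. The 2 endothelial markers likewise differed without overlap, at 908 to 1158 CPM in exposed and 756 to 858 CPM in unexposed libraries. The listed markers of hepatocytes, muscle, leukocytes, mesenchyme and oligodendrocytes overlapped between the groups. The part of these differences in the results was not tested. Unless stated otherwise the CPM from here on are scaled by TMM, a method that puts libraries on a common scale. On that scale 33.4% of all tested miRNAs did not overlap between the groups. miR-124-3p, 1 of the neuronal markers, was higher in exposed libraries, at 5405 and 3362 CPM against 2947 and 2190 CPM. The neuronal sum thus does not stand for each marker.

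The members spanned the whole range of the table. miR-103a-3p was the 10th most abundant miRNA by mean CPM and miR-107 was 102nd, whereas the arms of miR-33a ranked 487th (3p) and 828th (5p). miR-33b-3p and miR-103a-2-5p followed at 922nd and 968th, and miR-103b and miR-33b-5p had 0 counts in all 4 libraries. In the summed counts, as the authors assigned reads, miR-103a-3p exceeded miR-107 57.4-fold and miR-33a-5p 40345-fold. How reads that match both MIR103A loci were counted is not given, and the level of miR-103a-3p may depend on it. Of the 8 members, 4 passed the filter on low counts and were tested: miR-103a-3p, miR-107 and both arms of miR-33a.

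**Figure D1:**
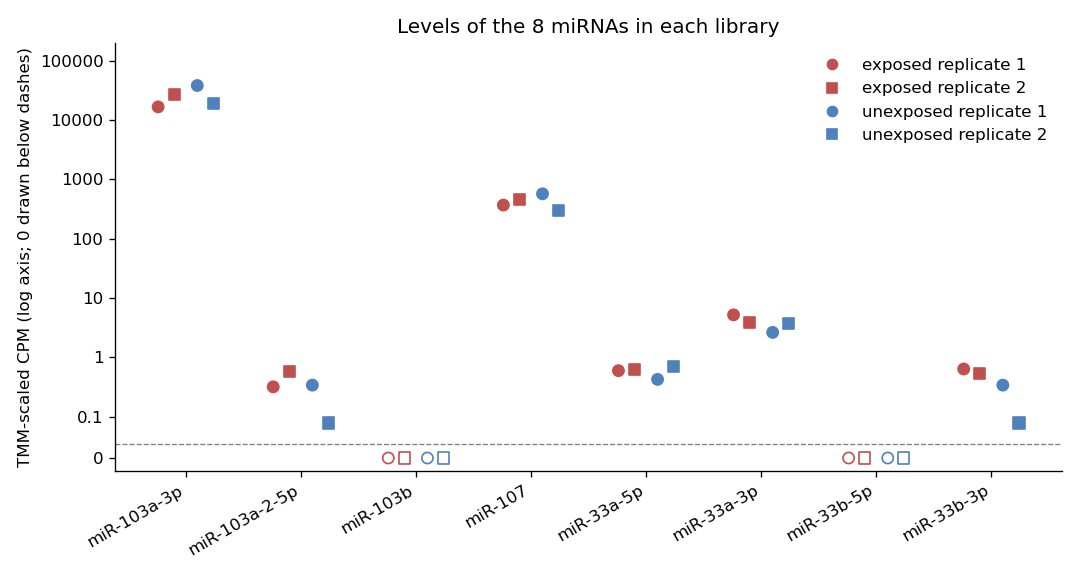
TMM-scaled CPM of each of the 8 miRNAs (x axis) in each library on a log axis; red points are exposed and blue points unexposed cultures, circles replicate 1 and squares replicate 2, and open points below the dashed line are counts of 0. miR-103a-3p lay between 16728 and 38355 CPM, while miR-103b and miR-33b-5p were at 0 in each library.

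No tested member differed between exposed and unexposed cells at an unadjusted P of 0.05 (0 of 4 in edgeR's quasi-likelihood test, and 0 of 4 in limma-voom and in DESeq2). Over all 863 tested miRNAs the share was 4.52% in edgeR, and 0 had an adjusted p under 0.05. The point estimates were lower in exposed cells for miR-103a-3p and miR-107 and higher for both miR-33a arms, and every 95% interval spanned 0. Among the tested members the TMM-scaled values of exposed and unexposed libraries did not overlap in 1 case, miR-33a-3p, against 33.4% of all tested miRNAs.

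miR-103a-3p, the abundant arm of both MIR103A precursors, was at 16728 and 26960 CPM in exposed replicates 1 and 2 and at 38355 and 19004 CPM in the unexposed replicates. The groups overlapped, because the highest and the second lowest values both came from unexposed cultures. The exposed mean was 21844 ± 7235 CPM and the unexposed mean 28680 ± 13683 CPM (SD, n = 2 each). The log2 fold change was -0.39 (standard error 0.39, 95% interval -1.30 to 0.51), with an unadjusted P of 0.345 and a Benjamini-Hochberg adjusted p of 0.937 in edgeR (adjusted p between 0.771 and 1.00 over the alternatives that keep all 4 libraries). A two-sided exact permutation test gave 0.667, where the smallest p that 2 cultures against 2 allow is 0.333.

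The difference between the unexposed cultures, 1.01 on the log2 scale, was larger than that between the groups. It exceeded the corresponding difference of 87.0% of all tested miRNAs, whose median was 0.41, and the exposed cultures differed by 0.69, more than 88.9% of tested miRNAs. The estimate turned on which culture was left out. It became 0.19 once unexposed replicate 1 was removed. Without unexposed replicate 2 it was -0.84, in a fit where 1 unexposed culture is left and the spread between unexposed cultures is not seen.

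miR-107, the PANK1 copy of the same seed, was at 369 and 453 CPM in exposed and at 572 and 298 CPM in unexposed cultures. The exposed values lay between the unexposed ones. The means were 411 ± 59.6 CPM and 435 ± 193 CPM (SD, n = 2 each), and the log2 fold change was -0.082 (standard error 0.32, 95% interval -0.82 to 0.66; unadjusted P 0.805, adjusted p 0.983 in edgeR, exact permutation p 1). As for miR-103a-3p, unexposed replicate 1 was the highest library, and the unexposed cultures differed by 0.94 on the log2 scale. The sign of the change depended on the scaling: it was 0.11 when TMM was replaced by library size alone. It was 0.060 without exposed replicate 1 and 0.45 without unexposed replicate 1.

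Counted together, miR-103a-3p and miR-107 took 1.94% and 2.68% of the counts of exposed libraries and 3.29% and 2.05% of those of unexposed ones. miR-103a-3p supplied nearly all of this, so the sum moved as it did. The log2 fold change of the sum was -0.39 (standard error 0.39), with an unadjusted P of 0.349 in edgeR.

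**Figure D2:**
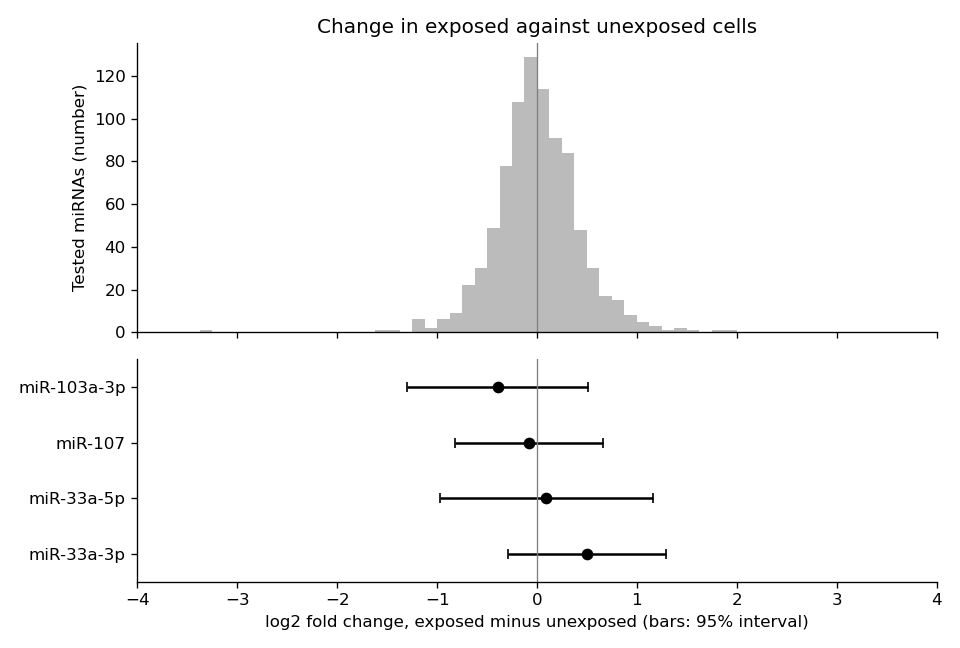
Upper panel, the number of tested miRNAs (y axis) at each log2 fold change of exposed against unexposed cells (x axis); lower panel, the 4 tested members on the same axis with their 95% intervals. All 4 intervals include 0, and the estimates lie between -0.39 and 0.50.

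The balance between miR-103a-3p and miR-107 can be read within a library, with no scaling, but how the authors counted reads that match both is not given, and the shares depend on it. Of the reads counted for either, miR-107 took 2.16% (2.12 to 2.20, a 95% Wilson interval) in the first and 1.65% (1.62 to 1.68) in the second exposed library. In the unexposed libraries it took 1.47% (1.43 to 1.50) and 1.55% (1.50 to 1.60). Both exposed libraries lay above both unexposed ones, and exposed replicate 1 stood far from the other three. The log2 ratio of miR-103a-3p to miR-107 was 5.70 ± 0.28 in exposed and 6.03 ± 0.054 in unexposed cells (SD, n = 2 each), a difference of -0.33. A two-sided exact permutation test gave 0.333, the smallest p possible here. The difference was -0.14 without exposed replicate 1 and -0.53 without exposed replicate 2. As no molecular identifiers were counted, these intervals describe counting error alone.

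**Figure D3:**
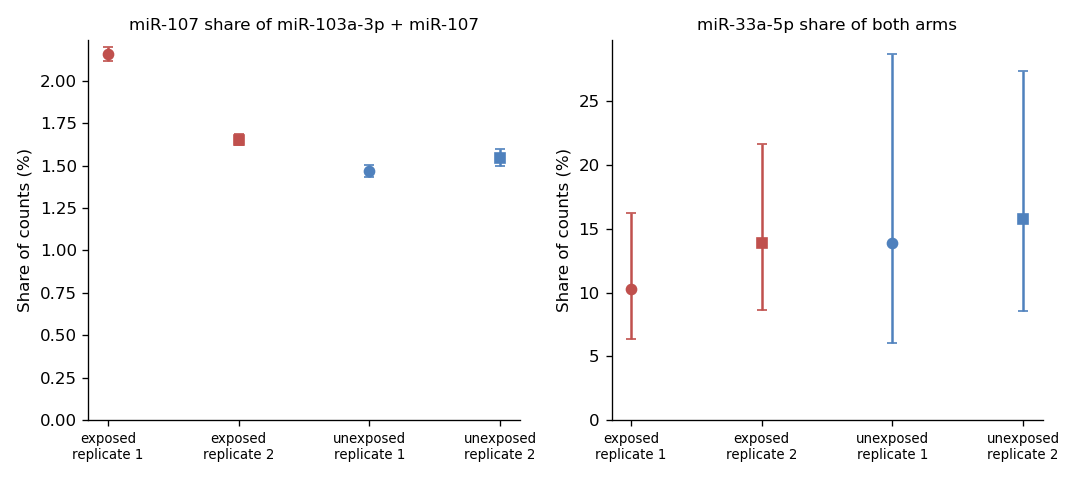
Left, miR-107 as a percent of the counts of miR-103a-3p and miR-107; right, miR-33a-5p as a percent of the counts of both miR-33a arms, in each library (x axis), with 95% Wilson intervals. The miR-107 share was 2.16% in exposed replicate 1 and 1.47% to 1.65% in the other libraries, while the wide intervals of the miR-33a-5p share overlap in all 4.

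The 5p arms of the MIR103A precursors were nearly absent. miR-103a-2-5p, the arm that belongs to the PANK2 copy alone, had 8 and 14 counts under exposure and 4 and 1 without it. Before TMM scaling the exposed rates were 0.360 CPM (95% Wilson interval 0.182 to 0.710) and 0.563 CPM (0.335 to 0.945), and the unexposed rates 0.287 CPM (0.112 to 0.738) and 0.0826 CPM (0.0146 to 0.468). All 4 intervals overlap. It did not pass the filter. With no filter beyond 1 count, its log2 fold change was 1.12 (standard error 0.73), with an unadjusted P of 0.124 and an adjusted p of 0.932 in edgeR.

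miR-103a-1-5p, from the PANK3 copy, had 1 count in each exposed and 0 in each unexposed library. Over the libraries the PANK2 arm thus had 27 counts and the PANK3 arm 2, although both precursors encode the same 3p arm with 1775190 counts. These 5p arms differ at base 1 alone. How the authors counted reads that match both is not given, and the split depends on it. The log2 ratio of miR-103a-3p to miR-103a-2-5p was 15.5 ± 0.094 in exposed and 17.0 ± 0.49 in unexposed cells (SD, n = 2 each). The difference of -1.43 had an exact permutation p of 0.333, the smallest possible, and it rests on 1 to 14 counts of the rare arm per library. miR-103b, from the opposite strand, had 0 counts in each library.

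miR-33a was represented mostly by its 3p arm, although miR-33a-5p is the arm known for repressing ABCA1. miR-33a-5p had 15 and 15 counts under exposure and 5 and 9 without it. For miR-33a-3p the counts were 131 and 93 under exposure and 31 and 48 without it. The 3p arm thus exceeded the 5p arm 6.89-fold in the summed counts.

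The 5p share of both arms was 10.3% (95% Wilson interval 6.33 to 16.3) and 13.9% (8.60 to 21.7) in the exposed and 13.9% (6.08 to 28.7) and 15.8% (8.54 to 27.4) in the unexposed libraries. Every upper bound lay below an even split, so the excess of the 3p arm was seen in each culture. Of 370 precursors with both arms counted and a summed mean of at least 1 CPM, 48.6% had more 3p than 5p counts, and in 60.3% 1 arm took 95% or more. An arm shared by several precursors was counted in full for each of them. At 87.3% 3p, MIR33A was therefore less one-sided than most. The share set down for MIR103A2 was 99.9985% 3p, but its 3p counts include those of the PANK3 copy, so its own share is not known.

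**Figure D4:**
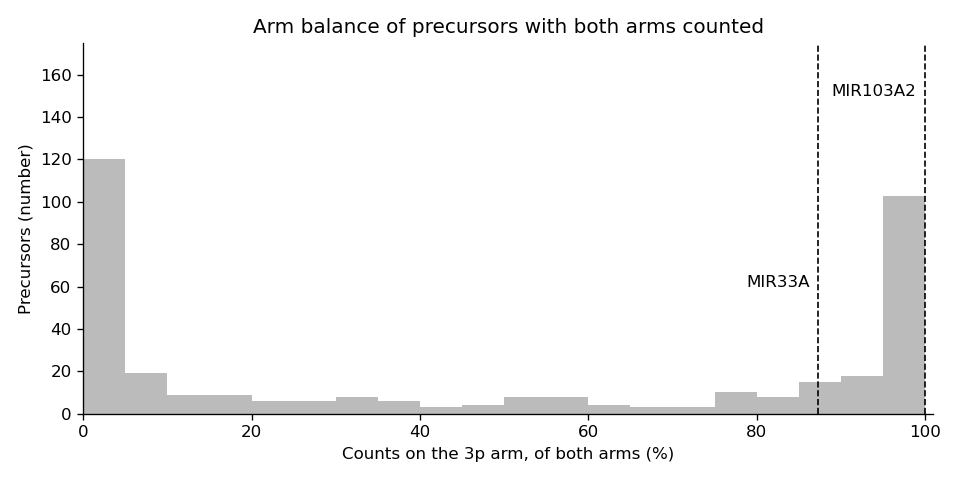
Number of precursors (y axis) by the percent of their counts on the 3p arm (x axis) over the 4 libraries, for the 370 precursors with both arms counted and at least 1 CPM; dashed lines mark MIR33A at 87.3% and MIR103A2 at nearly 100%. Most precursors sit at either edge. An arm shared by several precursors is counted in full for each, as is the 3p arm of MIR103A2.

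miR-33a-3p was at 5.19 and 3.82 CPM in exposed and at 2.63 and 3.73 CPM in unexposed cells after TMM scaling. Both exposed values were above both unexposed ones, the nearest pair by a small margin, and before TMM scaling exposed replicate 2 (3.74 CPM) was below unexposed replicate 2 (3.97 CPM). The means were 4.51 ± 0.97 CPM and 3.18 ± 0.78 CPM (SD, n = 2 each). The log2 fold change was 0.50 (standard error 0.34, 95% interval -0.29 to 1.29), or 1.41-fold, with an unadjusted P of 0.181 and an adjusted p of 0.922 in edgeR and an exact permutation p of 0.333 (adjusted p between 0.771 and 1.00 over the alternatives that keep all 4 libraries). The estimate was positive in each alternative and each time a library was left out, from 0.26 to 0.74 in the latter, where groups without overlap fix the sign.

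miR-33a-5p, the arm that carries the miR-33 seed, was at 0.595 and 0.616 CPM in exposed and at 0.424 and 0.699 CPM in unexposed cells. The exposed cultures lay between the unexposed ones. The means were 0.605 ± 0.015 CPM and 0.562 ± 0.19 CPM (SD, n = 2 each). The log2 fold change was 0.095 (standard error 0.46, 95% interval -0.97 to 1.16; unadjusted P 0.842, adjusted p 0.983 in edgeR, exact permutation p 1), and its sign was negative with upper quartile scaling. It rests on 5 to 15 counts per library, and a 2-fold higher level lay inside its interval.

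The comparison of the arm balance of miR-33a rested on how the low counts were handled. The log2 ratio of miR-33a-5p to miR-33a-3p, with 0.5 added to each count, was -2.84 ± 0.35 in exposed and -2.43 ± 0.12 in unexposed cells (SD, n = 2 each), a difference of -0.40 with an exact permutation p of 0.333. Without the added 0.5, exposed replicate 2 and unexposed replicate 1 had the same ratio, 0.161, the groups touched, and the exact permutation p was 0.667. The difference was -0.16 without exposed replicate 1 and -0.65 without exposed replicate 2.

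miR-33b, the SREBF1 copy, was found only as its 3p arm. miR-33b-5p had 0 counts in each library, which allows up to 0.121 to 0.248 CPM in a library, against 44 counts of miR-33a-5p over the 4 libraries. miR-33b-3p had 16 and 13 counts under exposure and 4 and 1 without it, 34 in all. Its rates before TMM scaling were 0.720 CPM (95% Wilson interval 0.443 to 1.17) and 0.523 CPM (0.306 to 0.895) with ethanol, and 0.287 CPM (0.112 to 0.738) and 0.0826 CPM (0.0146 to 0.468) without it.

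The exposed values of miR-33b-3p were both above the unexposed ones, and 33.4% of all tested miRNAs likewise had groups without overlap. A two-sided exact permutation test gave 0.333, the smallest p possible here. The intervals of the exposed libraries overlapped that of each unexposed library, but they describe counting error alone and do not test the groups. It did not pass the filter on low counts. With no filter beyond 1 count, its log2 fold change was 1.51 (standard error 0.68), with an unadjusted P of 0.0255 and an adjusted p of 0.785 in edgeR over 1825 miRNAs. Of these 1825, 94 had an unadjusted P under 0.05 in the same fit. With either unexposed library left out it passed the filter only through the exposed libraries, where it is high, so the values, 0.74 without unexposed replicate 2 and 2.81 without unexposed replicate 1, are given without a test. All miR-33 forms together had 162 and 121 counts under exposure and 40 and 58 without it. These counts are not scaled for depth. The exposed libraries held 22223060 and 24858230 counts in all and the unexposed ones 13941795 and 12100425, so the sums cannot be compared directly.

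**Figure D5:**
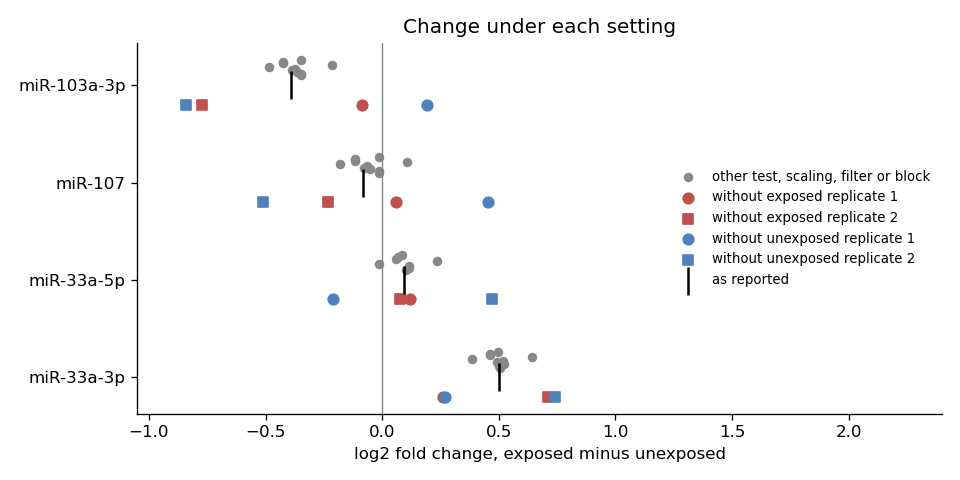
log2 fold change of exposed against unexposed cells (x axis) for the 4 tested members; black bars are the values reported, grey points other tests, scalings, filters and blocks, and colored points the fits that leave out 1 library. miR-103a-3p was at -0.84 without unexposed replicate 2 and at 0.19 without unexposed replicate 1. With a library left out, miR-33a-3p stayed between 0.26 and 0.74.

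Other miRNAs known for targets in cholesterol export, lipoprotein uptake or lipid synthesis were read for comparison. Of 18 listed, 16 were tested, of which 0 were higher and 1 was lower at an unadjusted P of 0.05 in edgeR (2.55% and 1.97% of all tested miRNAs), with 0 past an adjusted p of 0.05. Their median log2 fold change was 0.025, against -0.010 over all tested miRNAs. The most abundant were miR-26a-5p, with a mean of 50361 CPM and a change of -0.20 on the log2 scale (standard error 0.27), and miR-128-3p, with 43755 CPM and 0.31 (standard error 0.31). Both exceeded miR-103a-3p in mean level. The lower one was miR-19b-3p, with a log2 fold change of -0.90 (standard error 0.33; unadjusted P 0.0279, adjusted p 0.922 in edgeR). miR-122-5p, known from liver, was at 34.1 CPM, with 0.42 ± 0.42 (standard error) as its log2 fold change, and miR-223-3p had 0 counts.

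The miR-15/16 group, known for restraining the cell cycle, was also read. It was listed because its seed holds letters of the seed GCAGCAU shifted by a base. Of its 8 listed miRNAs 5 were tested, 0 of them with an unadjusted P under 0.05 in edgeR, and the median log2 fold change was 0.038. The estimates were 0.046 (standard error 0.21) for miR-16-5p, at 1672 CPM, and 0.47 (standard error 0.25) for miR-15a-5p, at 50.1 CPM. All 17 listed miRNAs from introns of other genes were tested. Some of them, such as miR-26a-5p and miR-128-3p, are also in the lipid list above. In edgeR 0 of the 17 passed an unadjusted P of 0.05, against 4.52% of all tested miRNAs. The log2 fold changes of the 17 had a median of -0.11 and a range from -0.37 to 0.76. The highest of these was miR-326, from an intron of ARRB1, at 5.09 CPM.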

How the data were processed

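Small RNA libraries (NEBNext) of 4 cultures were processed by the authors with CAP-miRseq, and the deposited values are unnormalized read counts for each mature miRNA. The submitters' processing notes name hg19; the pipeline version, the annotation release and the handling of reads that match several miRNAs are not given in the sources used here. Groups and replicate numbers come from the sample titles. The members and lists were chosen with earlier results of these data known.

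In R 4.3.3, edgeR 4.0.16 kept miRNAs with filterByExpr (minimum count 10, minimum total 15), applied TMM factors and tested exposed against unexposed cells with the quasi-likelihood test and Benjamini-Hochberg adjustment over 863 miRNAs. Standard errors and 95% intervals were taken from its F statistic. limma 3.58.1 (voom) and DESeq2 1.42.0, other scalings and filters, a replicate block and leaving out each library were alternatives. The fits were tested on simulated data. Ratios within a library had 0.5 added to each count. Those with miR-33b-5p were not computed, since it had 0 counts. Differences between miRNAs in how well they enter a library were not corrected.

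The rule for names was all 8 members, the 3 tested miRNAs closest in pattern to each of miR-103a-3p, miR-107 and miR-33a-5p, up to 4 miRNAs per list by mean CPM, and miRNAs of the same seed of at least 1 CPM. miR-19b-3p, miR-122-5p, miR-124-3p, miR-223-3p, miR-326, miR-515-3p and miR-519e-3p were named after their values were seen. Replicates 1 and 2 of the groups were not treated as pairs in the main fit. Their differences had a correlation of -0.186 across the 863 miRNAs. The sources used here do not say whether the cultures were paired, and a correlation from 4 libraries cannot decide it.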

Additional observations from a re-analysis of the deposited data

How the results depend on the processing

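The number of members with an unadjusted P under 0.05 in edgeR was 0. It stayed 0 in each alternative with all 4 libraries, except 1 of 6 tested with no filter beyond 1 count (miR-33b-3p). In that fit 94 of all 1825 tested miRNAs had such a P. With either unexposed library left out, 6 members rather than 4 were tested. miR-33b-3p then passed the filter only through the exposed libraries where it is high, and it is no support for a difference. Members under this P are not counted for fits that leave 1 culture in a group. Over all miRNAs 39 had such a P, 94 with no filter beyond 1 count, 25 with the replicate block and between 12 (without exposed replicate 1) and 109 (without unexposed replicate 2) with a library left out, where the lone library of a group is taken to vary like the others. The replicate block changed no call of a member, and the log2 fold change of miR-103a-3p was -0.35 with it. A block that crosses the replicate numbers, added with the data in view because their correlation was -0.186, gave 59 calls over all miRNAs and 0 among the members. miR-107 turned to 0.11 with library size only, and to 0.060 without exposed replicate 1 and 0.45 without unexposed replicate 1, within -0.51 to 0.45 over the libraries left out. miR-33a-5p turned to -0.013 with upper quartile scaling and to -0.21 without unexposed replicate 1, and miR-103a-3p to 0.19 without unexposed replicate 1. The sum of miR-103a-3p and miR-107 ranged from -0.84 to 0.20 with a library left out, and that of miR-33a-5p and miR-33b-5p from -0.21 to 0.47. The causes were not tested. miR-33a-5p did not pass the filters of CPM above 1 in at least 2 libraries or of at least 10 counts in every library. The ratios kept their sign under each offset and with summed counts; with a library left out the non-overlapping groups fix it. The tested miR-33a arms rest on 5 to 131 counts per library.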

Other observations

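The tested miRNAs whose pattern over the 4 libraries was closest to that of a member were found by the root mean square difference of centered log2 CPM. For miR-103a-3p these were miR-20a-5p (0.050), miR-200c-3p (0.072) and miR-452-5p (0.082), against a median of 0.53 over all others. For miR-107 they were miR-372-3p (0.037), miR-125a-5p (0.057) and miR-619-5p (0.066), against a median of 0.43, and for miR-33a-5p they were miR-1538 (0.034), miR-1226-5p (0.050) and miR-500b-3p (0.054), against 0.36. With 4 libraries and 863 miRNAs, a few close patterns occur for almost any miRNA, so these are a description only.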
